A study of Mus musculus with 2 samples.

Results

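The genes Ppm1n, Gsto2, Pde4c, Lsmem1 and BC051537 were described in single-cell RNA-seq of mouse dental pulp, the soft tissue inside the tooth. They were selected on measured values, because their levels in the mesenchymal cells of these libraries were far higher in the Vegfr2 knockout library, so every difference between the libraries in those cells is a description with no test. All 5 symbols were found among the 31053 genes that each count table lists. The 2 libraries came from C57BL/6 mice at postnatal day 12, 1 from mice with a knockout of Vegfr2 in endothelial cells and 1 from control mice. The driver of the knockout, the genotype of the controls beyond that label, and the number and sex of the pooled animals are not stated in the labels. Both tissues were dissociated with collagenase D, dispase and DNase. Living cells, which exclude propidium iodide, were then sorted and loaded for 10x Chromium 3' libraries.

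Pulp mesenchyme is the connective tissue of the tooth, made of fibroblast-like cells and of precursors of odontoblasts, the cells that lay down dentine. VEGFR2 is the main signalling receptor for VEGF-A on endothelial cells, the lining of vessels, and the pulp mesenchyme itself is not the cell type targeted by the knockout. The members belong to unrelated families. Ppm1n encodes a member of the PPM family of metal-dependent serine/threonine phosphatases, which remove phosphate groups from proteins. Gsto2 encodes an omega-class glutathione transferase, an enzyme that uses glutathione and can reduce dehydroascorbate to vitamin C. Pde4c encodes a phosphodiesterase that breaks down the second messenger cAMP. Lsmem1 encodes a leucine-rich membrane protein that crosses the membrane in a single pass, and BC051537 is annotated as an antisense RNA.

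The knockout table held 2563 barcodes with 17277162 UMIs (unique molecular identifiers, each counting 1 captured RNA molecule), whereas that of the control library held 3487 barcodes with 35918862 UMIs. Filtering left 1679 knockout and 2309 control cells, whose median depths were 8293 and 12198 UMIs. Only 3 barcodes occurred in both libraries, and no mesenchymal cell carried 1 of them. A cell was assigned to the class of which most of 8 marker genes had a UMI. This gave 348 knockout and 562 control mesenchymal cells, in which all 8 markers (Pdgfra, Msx1, Prrx1, Prrx2, Twist1, Vcan, Lum and Dcn) were detected, at a summed level of 7387 and 7118 CPM (UMIs scaled to 1000000 UMIs of the class). Of these cells, 29 knockout and 41 control cells sat at the lowest number of markers or the smallest lead allowed, and a further 11 and 16 cells missed the class by 1 marker. Kdr, the gene of VEGFR2, stood at 664 CPM in knockout and 1055 CPM in control endothelial-gated cells, a level that checks nothing about the deletion, because these libraries read the 3' end. Each genotype had 1 library, so genotype cannot be told apart from any other difference between the libraries. Intervals are 95% intervals and cover counting error only.

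The members lie on separate chromosomes in the mouse build GRCm38 (mm10). Ppm1n (ENSMUSG00000030402) spans 19276805 to 19280064 on the minus strand of chromosome 7, and Gsto2 (ENSMUSG00000025069) spans 47865534 to 47886324 on the plus strand of chromosome 19. Pde4c (ENSMUSG00000031842) spans 70723720 to 70751186 on the plus strand of chromosome 8, and Lsmem1 (ENSMUSG00000071342) spans 40175493 to 40199490 on the minus strand of chromosome 12. BC051537 (ENSMUSG00000098197) spans 34083843 to 34095309 on the minus strand of chromosome 17, among genes of the major histocompatibility complex. Promoter windows from RefSeq, 250 bases before to 50 bases after the transcription start, were matched for 5 of 5 members and gave 6 windows, since Gsto2 has 2 starts. Because the members were high in the same cells, the windows were searched on both strands for TATAAA (the TATA box), CCAAT (the CCAAT box), GGGCGG (the GC box), TGACG (the core of the cAMP response element) and ACGTG (the core of the hypoxia response element). No match to CCAAT overlapped a match to another of these motifs.

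Shown are 3 of the 6 windows to display the range from no match to the most matches, each of 300 bases and written along the gene's own strand. Capitals mark CCAAT or its other-strand form ATTGG, and GGGCGG or its other-strand form CCGCCC. The windows are chr7:19280000-19280299 for Ppm1n (minus strand), chr19:47865544-47865843 for the second start of Gsto2 (plus strand) and chr12:40199266-40199565 for Lsmem1 (minus strand), all in GRCm38.p6.
Ppm1n: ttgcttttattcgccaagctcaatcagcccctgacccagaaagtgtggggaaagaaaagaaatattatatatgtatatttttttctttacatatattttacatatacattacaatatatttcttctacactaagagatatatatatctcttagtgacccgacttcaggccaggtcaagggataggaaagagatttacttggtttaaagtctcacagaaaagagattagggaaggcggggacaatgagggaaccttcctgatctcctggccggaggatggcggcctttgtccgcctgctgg
Gsto2: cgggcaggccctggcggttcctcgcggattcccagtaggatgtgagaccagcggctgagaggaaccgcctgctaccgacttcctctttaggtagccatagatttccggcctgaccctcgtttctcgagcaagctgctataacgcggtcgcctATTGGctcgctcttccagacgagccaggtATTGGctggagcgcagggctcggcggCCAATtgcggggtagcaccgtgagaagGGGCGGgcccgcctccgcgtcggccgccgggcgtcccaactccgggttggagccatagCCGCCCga
Lsmem1: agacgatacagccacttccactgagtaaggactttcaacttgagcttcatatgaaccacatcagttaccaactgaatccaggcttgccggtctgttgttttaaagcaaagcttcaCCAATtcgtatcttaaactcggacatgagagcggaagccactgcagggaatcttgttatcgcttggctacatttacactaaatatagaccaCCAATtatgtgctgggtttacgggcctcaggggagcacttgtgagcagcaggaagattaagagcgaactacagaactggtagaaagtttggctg

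CCAAT was found in windows of 4 of the 5 members, namely Gsto2, Pde4c, Lsmem1 and BC051537, and 37.4% of all 32817 promoter windows of this length hold it. The Ppm1n window held none of the 5 motifs. GGGCGG occurred 2 times in the second Gsto2 window and in no other window of a member, against 35.6% of all windows. The TATA box and the cores of the cAMP and hypoxia response elements occurred in no window of a member, while 13.6%, 20.8% and 19.6% of all windows hold them. No motif searched was therefore present in all 5 promoters. A match describes letters only, and its absence describes only this window.

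In mesenchymal cells every member was at least 10-fold higher in the knockout library, as were 0.222% of all genes measured there. Ppm1n had 81 UMIs in knockout and 10 UMIs in control mesenchymal cells, or 27.1 against 1.30 CPM. Its ratio of knockout over control was 20.8 (interval 10.8 to 45.1). Gsto2 had 58 UMIs in knockout and 9 UMIs in control cells, or 19.4 against 1.17 CPM, a ratio of 16.6 (8.16 to 38.1). Both enzymes were thus present but scarce in the control library, at under 2 CPM. Pde4c had 36 UMIs in knockout and 4 UMIs in control cells, or 12.05 against 0.520 CPM, a ratio of 23.1 (8.30 to 89.5). Lsmem1 had 80 UMIs in knockout and 19 UMIs in control cells, or 26.8 against 2.47 CPM, a ratio of 10.8 (6.50 to 18.9). BC051537 had 29 UMIs in knockout and 4 UMIs in control cells, or 9.70 against 0.520 CPM, a ratio of 18.6 (6.55 to 73.0). No member's intervals of CPM overlapped between the libraries, which describes how the members were selected. The share of all genes without such an overlap is not given here. The values rest on few molecules, and for BC051537 1 knockout cell held 5 UMIs, 17.2% of the total.

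Among the 12634 genes whose mesenchymal cells held 20 or more UMIs in the libraries together, Pde4c ranked 6, Ppm1n 9, BC051537 10, Gsto2 14 and Lsmem1 26 from the highest ratio. At least 10-fold higher in the knockout library were 28 of these genes (0.222%), 5 of which are the members. At least 4-fold higher were 138 genes (1.09%), at least 1.5-fold higher 1454 genes (11.5%) and at least 1.5-fold lower 1604 genes (12.7%). The median log2 ratio over all these genes was -0.048. These places in the order describe how the members were selected and support nothing further.

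**Figure D1:**
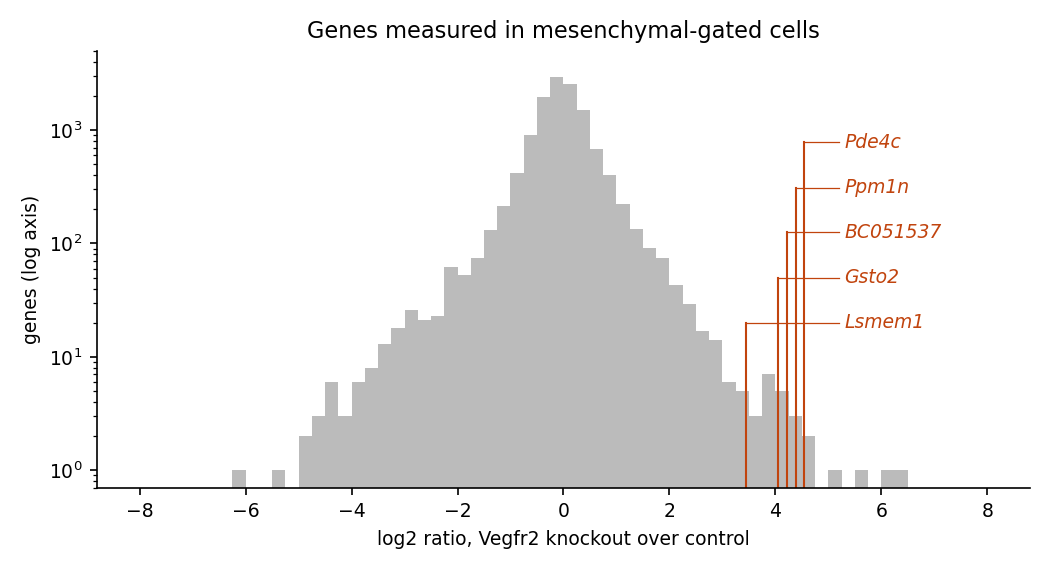
Number of genes (log axis) by log2 ratio of Vegfr2 knockout over control CPM in mesenchymal-gated cells, for 12634 genes, with the 5 genes marked by vertical lines. The members lie in the upper tail, from a log2 ratio of 3.44 for Lsmem1 to 4.53 for Pde4c, against a median of -0.048.

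Few cells carried a member. Ppm1n was detected in 52 of 348 knockout mesenchymal cells (14.9%, interval 11.4 to 19.1%) and in 7 of 562 control cells (1.25%, 0.502 to 2.55%). Lsmem1 was detected in 60 knockout cells (17.2%) and 17 control cells (3.02%), and Gsto2 in 44 knockout cells (12.6%) and 9 control cells (1.60%). Pde4c was found in 32 knockout cells (9.20%) and 4 control cells (0.712%), and BC051537 in 24 knockout cells (6.90%) and 4 control cells (0.712%). The knockout cells were the shallower ones, with a median of 8150 UMIs against 12412.5 UMIs in control mesenchymal cells. When every cell was thinned to a depth of 2000 UMIs, at the loss of 18 knockout and 19 control cells, Ppm1n was detected in 15 of 330 knockout cells (4.55%) and 2 of 543 control cells (0.368%). Lsmem1 was then detected in 12 knockout cells (3.64%) and 3 control cells (0.552%), Gsto2 in 8 knockout cells (2.42%) and 1 control cell (0.184%). Pde4c was detected in 9 knockout cells (2.73%) and BC051537 in 8 (2.42%), and in the control library both had 0 of 543 cells. By 3 counts of the total this allows a share of up to 0.552% of cells with a UMI at the thinned depth, and the Clopper-Pearson upper limit is 0.677%. In glia, at median depths of 8739 UMIs in 371 knockout cells and 12315 UMIs in 445 control cells, Ppm1n and Lsmem1 were detected in 0 cells of either library. Gsto2 was detected there in 3.50% of knockout and 2.47% of control cells, Pde4c in 1 cell of each library, and BC051537 in 1 knockout and 0 control cells. The part of free RNA in the shares was not tested.

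The members differed in how far they were restricted to mesenchymal cells. Of all UMIs of BC051537 in kept knockout cells, 93.5% lay in mesenchymal cells, compared with 89.0% for Ppm1n, 76.3% for Gsto2, 62.1% for Pde4c and 26.5% for Lsmem1. Ppm1n had 0 UMIs in mural and glial cells of both libraries, 1 UMI in knockout and 0 in control endothelial cells, and 4 UMIs in the leukocytes of each library. BC051537 had at most 1 UMI per library in any class outside the mesenchyme. The 56 knockout and 71 control cells left without a class held 5 and 0 UMIs of Ppm1n, 8 and 4 UMIs of Pde4c and 1 UMI of BC051537 in each library. In these knockout cells Ppm1n was at 15.5 CPM (5.04 to 36.2) and Pde4c at 24.8 CPM (10.7 to 49.0). The Pde4c level lay above that of knockout mesenchymal cells (8.44 to 16.7 CPM) with overlapping intervals, and 4 of its 8 UMIs came from 1 cell. For Ppm1n and BC051537, mesenchymal cells therefore stood above every other gated class in the knockout library, and the levels in the other gated classes were too low to be ordered.

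Among the gated classes of the knockout library Gsto2 was second highest in glia, the Schwann-cell lineage of the pulp nerves. Glia held 13 Gsto2 UMIs in knockout and 11 UMIs in control cells, or 3.78 against 1.85 CPM. That ratio was 2.04, with an interval of 0.843 to 5.03 that includes 1. In control cells the glial level of Gsto2 (1.85 CPM, interval 0.925 to 3.31) and the mesenchymal level (1.17 CPM, 0.535 to 2.22) overlapped, so the order of these classes was not resolved there. Pde4c was second highest among those classes in mural cells, the pericytes and smooth muscle cells around vessels. Mural cells held 9 Pde4c UMIs in knockout and 14 UMIs in control cells, or 7.63 against 4.58 CPM. The mural ratio of 1.67 (0.636 to 4.13) includes 1. In the control library Pde4c was higher in mural cells than in mesenchymal cells, at 4.58 against 0.520 CPM, and the intervals did not overlap.

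Lsmem1 had its highest level outside the mesenchyme. In leukocytes it had 209 UMIs in knockout and 49 UMIs in control cells, or 34.4 against 5.48 CPM, a ratio of 6.27 (4.58 to 8.75). It was detected in 82 of 613 knockout leukocytes (13.4%) and 22 of 589 control leukocytes (3.74%), and after thinning in 5.51% and 1.05%. The knockout levels in leukocytes (29.9 to 39.4 CPM) and mesenchymal cells (21.2 to 33.3 CPM) overlapped in their intervals. In mural cells Lsmem1 was on the other side of 1, with 5 UMIs in knockout and 26 UMIs in control cells, or 4.24 against 8.51 CPM, a ratio of 0.498 (0.149 to 1.32). Endothelial cells, the type the knockout targets, had 5 Lsmem1 UMIs in each library, and 4 of the 5 in the knockout library came from 1 cell.

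**Figure D2:**
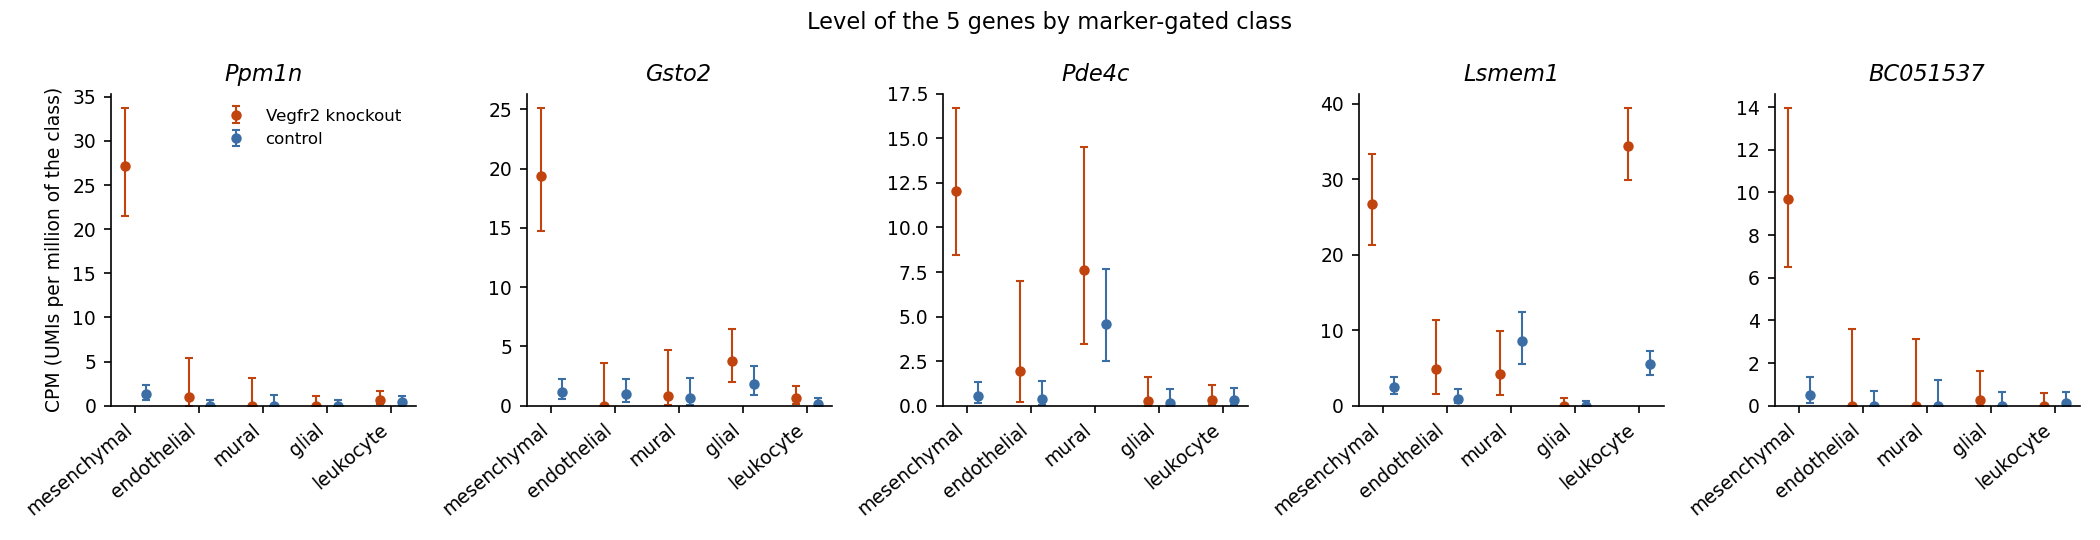
CPM of each gene in 5 marker-gated classes, Vegfr2 knockout in orange on the left of each pair and control in blue, 1 library each, with exact Poisson 95% intervals. In mesenchymal cells, the contrast on which the genes were selected, the knockout interval lies above the control interval for all 5 genes. Lsmem1 is also high in knockout leukocytes (34.4 CPM against 5.48 CPM), and Pde4c and Lsmem1 have a level in mural cells of both libraries.

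The Lsmem1 signal of leukocytes lay mainly in 3 of the 25 clusters found when all cells of both libraries were clustered without the members. The cluster led by Ccr7 and Mmp12 had the highest level, at 108 CPM in 71 knockout cells and 106 CPM in 5 control cells, a ratio of 1.02 (0.515 to 2.29). In the cluster led by F10 and Ly6c2 the levels were 38.6 and 3.48 CPM in knockout and control cells, a ratio of 11.1 (3.56 to 55.9). In the cluster led by Cd209a the levels were 33.9 and 5.65 CPM, a ratio of 6.00 (3.57 to 10.4). The leukocyte ratio thus took in a cluster with far more knockout cells, whose levels were not told apart, and clusters in which the levels differed. The control levels rest on few cells. That of the Ccr7 cluster came from 9 UMIs in 2 cells, 5 of them in 1 cell, and that of the F10 cluster from 3 UMIs in 2 cells. In the mural cluster led by the smooth muscle genes Myh11 and Acta2, Lsmem1 had 2 UMIs in knockout and 20 UMIs in control cells, and Pde4c had 7 and 10. In the mural cluster led by Spp1 and Higd1b, Lsmem1 had 3 UMIs in knockout and 4 UMIs in control cells (8.75 against 4.97 CPM), and Pde4c had 6 and 5 (17.5 against 6.21 CPM).

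Within the mesenchyme of the knockout library, most UMIs of each member lay in 1 of 5 mesenchymal clusters. This cluster, number 5, was led by B230344G16Rik, Gm3336, Gm42743, Atcayos and Gm26802, mostly genes without a named function, and it holds 177 knockout cells (10.5% of kept cells) and 33 control cells (1.43%). It was formed without the members but with other genes that differ between the libraries, and a cluster mostly of 1 library may be that library rather than a cell type. The cluster had all 8 mesenchymal markers in both libraries, at summed levels of 6671 and 5376 CPM. Its cells had median depths of 8389 and 7713 UMIs and median mitochondrial shares of 7.05% and 6.37% in knockout and control. In the other mesenchymal cells the depths were 7868.5 and 12579 UMIs and the shares 7.01% and 5.64%. Malat1, a nuclear RNA, was at 106492 and 117256 CPM in cluster 5 and at 92293 and 67728 CPM in the others. The ribosomal gene share was 10.7% and 9.95% in cluster 5 and 11.6% and 15.3% in the others. The part of these differences in the levels of the members was not tested. Of the UMIs in all kept knockout cells, of any class, cluster 5 held 80.2% for Ppm1n, 77.4% for BC051537, 60.5% for Gsto2, 60.3% for Pde4c and 23.2% for Lsmem1. Of those in the 5 mesenchymal clusters it held 73 of 83 for Ppm1n, 24 of 30 for BC051537 and 46 of 58 for Gsto2. For Pde4c it held 35 of 40 and for Lsmem1 70 of 83. In the control library it held 6 of 10 for Ppm1n, 1 of 4 for BC051537 and 9 of 20 for Lsmem1. It held 0 of the 9 control UMIs of Gsto2 and 0 of the 5 of Pde4c.

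Inside cluster 5 the libraries were closer for Ppm1n and Lsmem1. Ppm1n had 73 UMIs in knockout and 6 UMIs in control cells, or 47.4 against 24.8 CPM, a ratio of 1.92 (0.839 to 5.39). Lsmem1 had 70 UMIs in knockout and 9 UMIs in control cells, or 45.5 against 37.1 CPM, a ratio of 1.22 (0.609 to 2.79). Both intervals include 1 and rest on 33 control cells, of which 3 held Ppm1n and 7 held Lsmem1. For Ppm1n, 1 control cell held 3 of the 6 UMIs. Gsto2 had 46 UMIs in knockout and 0 UMIs in control cells, at least 2.41-fold higher when 3 counts over the cluster are taken as the floor. Pde4c had 35 UMIs in knockout and 0 UMIs in control cells, at least 1.84-fold higher on the same floor. BC051537 had 24 UMIs in knockout cells and 1 UMI in control cells, a ratio of 3.78 (0.616 to 155).

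Without cluster 5, 178 knockout and 537 control mesenchymal cells remained, and the levels were low in both libraries. Ppm1n then had 9 UMIs in knockout and 4 UMIs in control cells, a ratio of 11.2 (3.13 to 49.8), and BC051537 had 6 and 3 UMIs, a ratio of 9.96 (2.13 to 61.6). Gsto2 had 12 UMIs in knockout and 9 UMIs in control cells, a ratio of 6.64 (2.57 to 17.9), and Lsmem1 had 11 UMIs in each library, a ratio of 4.98 (1.96 to 12.7). Pde4c had 3 UMIs in knockout and 4 UMIs in control cells, a ratio of 3.74 whose interval of 0.547 to 22.1 includes 1. The interval lay above 1 for each member but Pde4c. These cells are part of the contrast on which the members were selected, and the share of all genes with such an interval is not given here. Of 12263 genes with at least 20 UMIs there, 52 (0.424%) were at least 4-fold higher in the knockout library, and only Gsto2 and Lsmem1 among the members reached 20 UMIs.

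**Figure D3:**
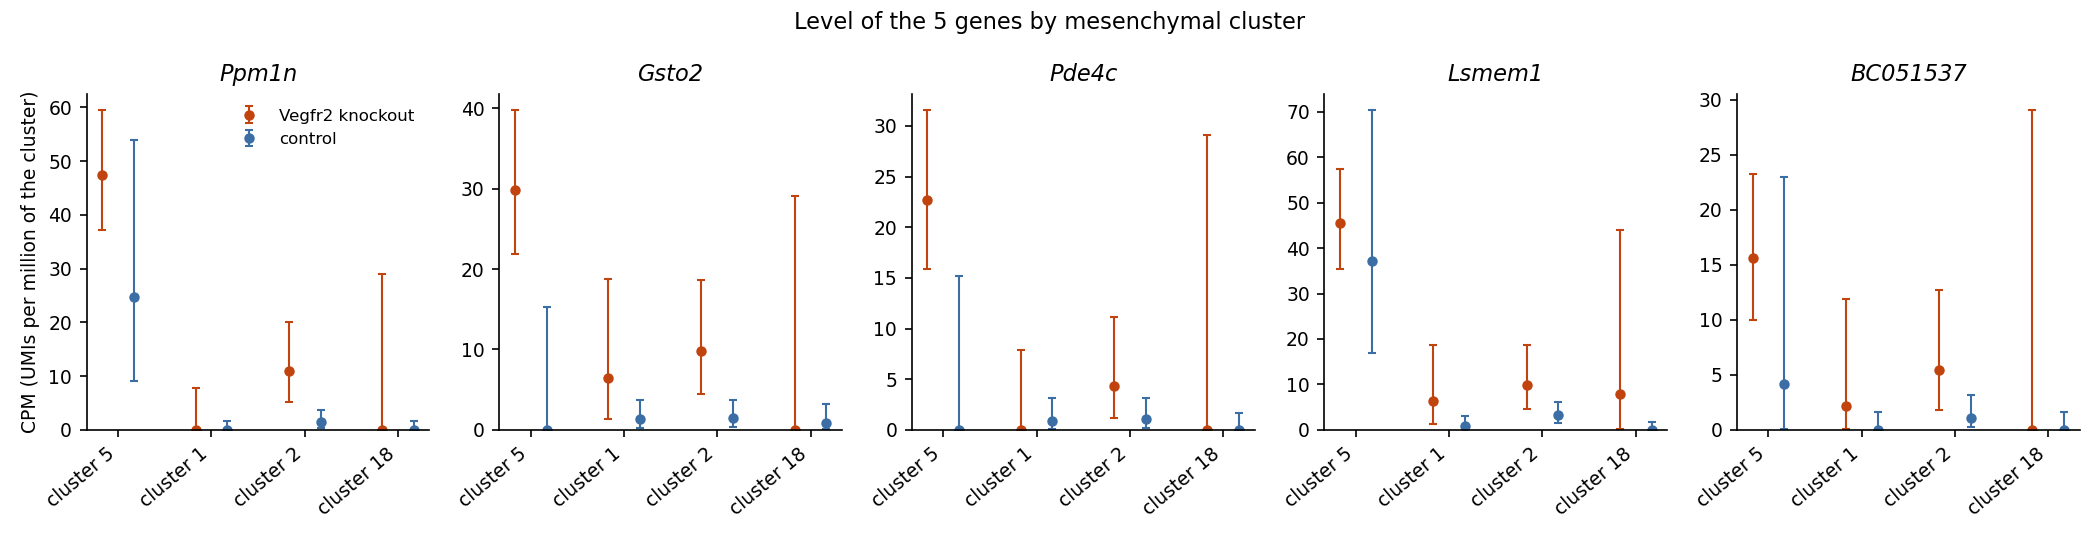
CPM of each gene in the 4 mesenchymal clusters with at least 20 cells in both libraries, Vegfr2 knockout in orange on the left of each pair and control in blue, with exact Poisson 95% intervals. Cluster 5 has the highest knockout level of every gene (47.4 CPM for Ppm1n). The control level there is 24.8 CPM for Ppm1n, from 3 cells, and 37.1 CPM for Lsmem1, from 7 cells, with 0 UMIs of Gsto2 and Pde4c.

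The second mesenchymal level was that of cluster 2, led by Pamr1 and Cldn10, with 113 knockout and 257 control cells. There Ppm1n had 10 UMIs in knockout and 4 in control cells (ratio 7.57, 2.18 to 33.1), Gsto2 had 9 and 4 (6.82, 1.90 to 30.3), and Lsmem1 had 9 and 9 (3.03, 1.07 to 8.61). Pde4c had 4 and 3 UMIs and BC051537 5 and 3, with intervals that include 1. Cluster 1, led by Opcml, Cnmd and Col9a1, held at most 3 UMIs of any member in either library, and cluster 18, led by Pcp4 and Smoc2, held 1 UMI of Lsmem1 in knockout cells and 2 of Gsto2 in control cells. The 22 knockout cells of cluster 18 had a median of 1647.5 UMIs, against 17675 UMIs in its 122 control cells, so a low level could not be seen there.

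Mesenchymal subsets cut by marker genes gave the following values. Cells with at least 2 of the cartilage-type genes Col9a1, Col9a2, Col9a3 and Cnmd numbered 204 in the knockout and 384 in the control library. Among these cells Ppm1n was at 27.6 against 1.71 CPM, a ratio of 16.1 (8.14 to 35.5). Cells with both Cldn10 and Fmod numbered 272 and 333, and Ppm1n was at 31.2 against 2.16 CPM, a ratio of 14.4 (7.21 to 32.7). Cells with at least 2 of 8 odontoblast and mineral genes, such as Dspp and Dmp1, numbered 141 and 294, and Ppm1n was at 25.5 against 1.12 CPM, a ratio of 22.9 (8.95 to 74.7). The subsets overlap, and each of these 3 held the other 4 members at ratios between 8.42 and 39.6. Cluster 5 held 114, 149 and 75 of their knockout cells but 18, 19 and 8 of their control cells. Among the 120 knockout and 288 control cells with at least 2 of Rab3b, Enpp6, Nnat and Syt6, the ratios lay between 5.41 for BC051537 and 24.0 for Pde4c. The 11 knockout and 40 control cells with at least 2 of 8 cell cycle genes held at most 2 UMIs of any member in either library. Cells with both Smoc2 and Pcp4 were 2 in the knockout and 63 in the control library and had 1 UMI of the members between them.

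In the knockout library the sex-linked genes varied with the members. Among cells that had either Xist or Y-linked UMIs but not both, Y-positive cells made up 7.10% of the knockout cells of cluster 5 (12 against 157 Xist-positive cells), whereas they made up 36.6% of the other knockout mesenchymal cells (53 against 92). In control cells the Y-positive shares were 16.7% in cluster 5 (5 against 25 Xist-positive cells) and 11.4% in the other mesenchymal cells (57 against 441). Knockout mesenchymal cells with a UMI of any member were Y-positive in 7.97% and those without in 31.8%. In control mesenchymal cells the shares were 16.7% of those with a member (6 against 30 Xist-positive cells) and 11.5% of those without (56 against 430). The order of the control shares rests on few cells and was not resolved. In Xist-positive mesenchymal cells the ratio of Ppm1n was 63.0 (23.7 to 237), from 79 UMIs in knockout and 4 UMIs in control cells. In Y-positive cells it was 0.476 (0.0453 to 2.91), from 2 UMIs in 65 knockout cells and 5 UMIs in 62 control cells. All of these UMIs lay in cluster 5, in 1 knockout and 2 control cells. Xist-positive cells of that cluster held 71 UMIs of Ppm1n in knockout and 0 in control cells. That is at least 3.18-fold higher with 3 counts as the floor. Over all Y-positive mesenchymal cells the ratios were 3.57 (0.638 to 36.2) for Gsto2, 2.38 (0.124 to 140) for Pde4c, 6.55 (1.43 to 60.8) for Lsmem1 and 8.33 (1.07 to 375) for BC051537. For BC051537, 5 of the 7 knockout UMIs came from 1 cell, against 1 control UMI. For Lsmem1, both control UMIs came from 1 cell. The part of the sex or of the single animals behind each library in the levels of the members was not tested.

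Other measures of the cells also differed between the libraries. In knockout mesenchymal cells the median mitochondrial share was 7.01% against 5.67% in control cells, the ribosomal gene share was 11.1% against 15.1%, and Malat1, a nuclear RNA, was at 99561 against 68920 CPM. The summed markers of other classes in knockout mesenchymal cells were at 429 against 218 CPM for mural, 200 against 106 CPM for glial and 102 against 44.1 CPM for leukocyte markers. Those of endothelial cells were at 32.5 against 31.1 CPM, those of epithelium at 24.1 against 15.9 CPM and those of skeletal muscle at 6.02 against 6.25 CPM. Of the 8 markers of each class, 8 mural, 7 glial, 8 leukocyte, 8 endothelial, 6 epithelial and 7 muscle markers were detected in knockout cells, against 8, 8, 8, 8, 7 and 6 in control cells. The part of these differences in the levels of the members was not tested. Knockout mesenchymal cells with and without a member had mitochondrial shares of 6.83% and 7.10% and Malat1 at 99828 and 99351 CPM. Their median depths were 8676 and 7797.5 UMIs. Mural markers were at 286 CPM with and 542 CPM without a member, and glial markers at 235 and 172 CPM. The part of these measures was not tested either.

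At least 1 member was detected in 142 of 348 knockout mesenchymal cells (40.8%, interval 35.6 to 46.2%) and in 38 of 562 control cells (6.76%, 4.83 to 9.16%). In cluster 5 the shares were 64.4% of 177 knockout cells and 24.2% of 33 control cells, and in the other mesenchymal cells 16.9% of 178 and 5.77% of 537. In leukocytes the shares were 14.5% of knockout and 5.26% of control cells, of which 82 of 89 and 22 of 31 had Lsmem1, and in mural cells 8.55% and 14.2%. Mural cells thus had the highest share of these classes in the control library. At least 2 members were detected in 54 knockout and 2 control mesenchymal cells, and at least 3 members in 14 knockout cells and 1 control cell.

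Members were found together in the same knockout cells more often than detection at random over cells of these depths would give. Summed over the 10 pairs, 88 joint detections were observed in knockout mesenchymal cells, where 58.6 were expected if the members were independent given each cell's UMI total, a ratio of 1.501 (1.20 to 1.85). The pairs share cells, so this interval is too narrow. Ppm1n and Lsmem1 were together in 18 cells against 10.4 expected, Pde4c and Lsmem1 in 11 against 6.41, and Ppm1n and Gsto2 in 12 against 7.63. Gsto2 and Lsmem1 were together in 8 cells against 8.79 expected, the only pair below its expectation in these cells. A total of 206 knockout cells had no member against 186 expected, 88 had 1 against 119, 40 had 2 against 36.1, and 12 had 3 against 6.21.

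Within cluster 5 the excess was small. There 89 joint detections were observed in all 177 knockout cells and 82.0 were expected, a ratio of 1.09 (0.872 to 1.34). The members therefore shared the cluster, and inside it a cell with 1 member was not detectably more likely to hold another. In the other knockout mesenchymal cells 5 joint detections were seen against 3.13 expected. Control mesenchymal cells had 4 joint detections against 1.37 expected, all of them in cluster 5.

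**Figure D4:**
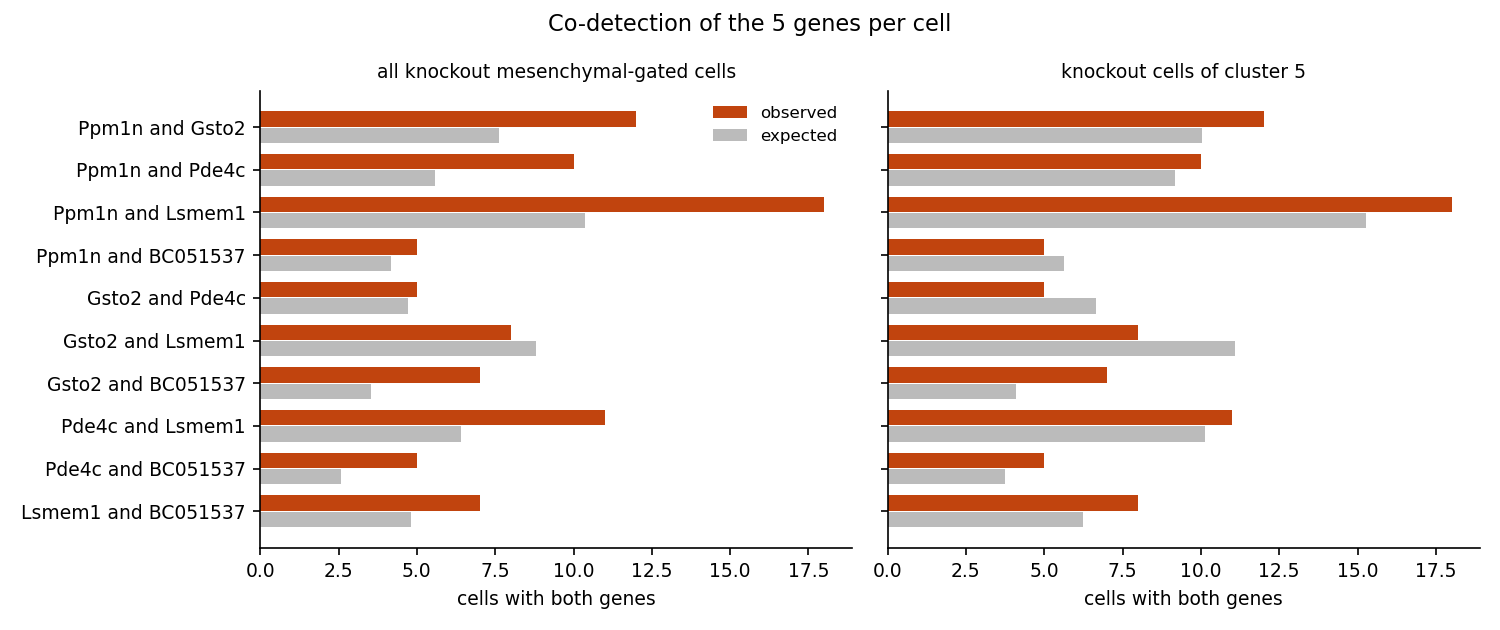
Number of cells with both genes of each pair, observed (orange) and expected from independent detection given each cell's UMI total (grey), in 348 knockout mesenchymal-gated cells (left) and 177 knockout cells of cluster 5 (right). Over all mesenchymal cells 9 of 10 pairs exceed the expectation, and in cluster 5 the 10 pairs sum to 89 observed against 82.0 expected.

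Most relatives of the members lay within 1.5-fold of their control level, where 11.5% of all genes were at least 1.5-fold higher and 12.7% at least 1.5-fold lower in knockout mesenchymal cells. Of 17 measured PPM phosphatases, 3 were at least 1.5-fold higher in knockout mesenchymal cells, 1 was lower and 13 lay between, with a median log2 ratio of 0.01 beside -0.048 over all genes. Ppm1h (1.78), Phlpp1 (1.71) and Pptc7 (1.63) were the higher ones and Ppm1m (0.601) the lower, against 20.8 for Ppm1n. Of 14 glutathione transferases, 6 were higher and none lower, with a median log2 ratio of 0.12. Gstp1, a pi-class transferase that conjugates glutathione to electrophiles, had 310 UMIs in knockout and 52 UMIs in control cells, or 103.7 against 6.77 CPM, a ratio of 15.3 (11.4 to 21.0). Without cluster 5 its ratio was 16.6, and its reads may be shared with near-identical copies such as Gstp2. Mgst1 (2.21), Gstt2 (2.06) and Gstt1 (1.60) came next.

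Of 17 genes that make or use glutathione and ascorbate, 3 were higher and none lower, with a median log2 ratio of -0.01. Slc23a1, a vitamin C transporter, had a ratio of 4.37 (1.89 to 10.7) that was 1.66 without cluster 5, Ggt5 had 3.49 and Gclc, which catalyses the first step of glutathione synthesis, had 1.77. Of 13 cyclic nucleotide phosphodiesterases, 4 were higher and none lower, with a median log2 ratio of 0.15, and these were Pde1c (2.12), Pde8a (1.62), Pde5a (1.56) and Pde8b (1.53). Of 21 genes of cAMP synthesis and protein kinase A, 2 were higher and 1 lower, with a median log2 ratio of 0.01. Adcy7, an adenylyl cyclase, had a ratio of 2.57, and Rapgef3, a cAMP-regulated exchange factor, 1.74. Prkar2b, a regulatory subunit of protein kinase A, was the lower one, with 7 UMIs in knockout and 76 UMIs in control cells (ratio 0.237, 0.0921 to 0.512).

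The neighbours of the members on the chromosome, the nearest gene with at least 20 UMIs on each side, showed smaller differences. The members were selected for a high ratio in these cells, so the smaller ratios of the neighbours support nothing further. Gm3336, which lies 1086 bases from Pde4c on the same strand, was at 44.5 against 13.3 CPM, a ratio of 3.35 (2.57 to 4.38), and is also among the leading genes of cluster 5. Rtn2, 2560 bases from Ppm1n, had a ratio of 2.43 (1.47 to 3.99), and Vasp on the other side had 1.04 (0.851 to 1.27). Gsto1, the other omega-class gene and 744 bases from Gsto2, was at 28.1 against 24.7 CPM, a ratio of 1.14 (0.869 to 1.48). Sorcs3, 319701 bases from Gsto2 on the other side, had a ratio of 1.56 (0.989 to 2.43). The neighbours Rab3a of Pde4c, Scin and Ifrd1 of Lsmem1, and Col11a2 of BC051537 had ratios between 1.17 and 1.23. Brd2, 16714 bases from BC051537, had 1.71.

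Of the members, 3 overlap genes of the opposite strand. No label says whether the counting used strand, and a part of the overlapping genes in the counts of the members was not tested. Lsmem1 shares 284 exon bases with the antisense gene Gm17056, which had 44 UMIs in knockout and 31 UMIs in control mesenchymal cells, a ratio of 3.65 (2.25 to 5.98). BC051537 shares 321 exon bases with H2-Oa, a gene of antigen presentation, which had 6 UMIs in each library, and also overlaps a pseudogene not analysed here. Gsto2 lies within Cfap43, with no exon bases shared, and Cfap43 had 13 UMIs in knockout and 44 in control cells, a ratio of 0.760 (0.375 to 1.44).

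Across 10 points, the sums of 5 classes in each of the 2 libraries, the genes whose level followed the mean of the members most closely were ranked among 13989 genes by Pearson correlation. Among the 10 highest were Ldha (r = 0.937), Gm32389 (0.936), Ppard (0.933) and Tpi1 (0.923). Also among them were Gm47438 (0.917), 6030408B16Rik (0.917), Atcayos (0.915), Gm42743 (0.903) and A230087F16Rik (0.901). The points include the mesenchymal sums on which the members were selected, so the ranking rests partly on that selection and supports nothing further. The points of a library share its depth and RNA quality, and with so few points the correlation is a description only. Gm32389 was at 22.4 against 1.04 CPM in mesenchymal cells, a ratio of 21.5, and 82.3% of its knockout UMIs lay in cluster 5. The glycolytic genes Ldha and Tpi1 had ratios of 2.81 and 2.74, with 18.4% and 26.2% of their knockout UMIs in cluster 5.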

How the data were processed

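Single-cell RNA-seq counts of 1 Vegfr2 knockout and 1 control library were analysed. The deposited values are raw UMI counts per gene and barcode in filtered matrices. Per the file headers, Cell Ranger 6.0.1 wrote the knockout and 5.0.0 the control matrix, while the submitters' processing notes name 6.0.1 and mm10. No source used here states whether intronic reads were counted.

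Kept barcodes had 500 or more genes, 1000 or more UMIs and a mitochondrial share of 10% or less, and 4 knockout and 20 control doublets were removed with Scrublet (expected rate 0.8% per 1000 cells). These are fewer than that rate, so undetected doublets remain. A cell was gated to 1 of 7 classes by at least 3 of 8 markers and a lead of at least 2 markers. UMIs were summed per class and library and scaled to CPM, with exact Poisson intervals, exact conditional intervals of ratios and Clopper-Pearson intervals of shares. A fold against 0 used a floor of 3 counts over the set. Joint detections were compared with independent detection given each cell's UMI total, a script tested on simulated data. Clustering left the members out and used 2000 variable genes, 30 components, 15 neighbours and Leiden resolution 1, without batch integration, in scanpy 1.11.5 (Python 3.11.15). Of the 25 clusters, 5 held mostly mesenchymal-gated cells. Cells are not replicates, so no test was made. Loci come from GENCODE and promoters from RefSeq, both GRCm38.

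The members and gene lists were chosen with earlier results of these data known. Named genes were the 5 members, up to 4 listed genes past 1.5-fold with at least 20 UMIs per list, chromosomal neighbours and the 10 most alike genes with at least 50 UMIs, of which 1 is not reported here. Alternatives changed the cell filter, doublets, gate, depth, weighting, scaling and the sex-linked cells used.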

Additional observations from a re-analysis of the deposited data

Results flagged for a closer look

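Lsmem1 lay on opposite sides of 1 in different classes. Its ratio of knockout over control was 0.498 (0.149 to 1.32) in mural cells, from 5 UMIs in knockout and 26 UMIs in control cells, and 10.8 in mesenchymal cells. The difference between the classes was not tested, and the mural interval includes 1.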

How the results depend on the processing

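No paired analysis was possible because each genotype has 1 library. The ratios of Gsto2, Pde4c, Lsmem1 and BC051537 stayed above 1 under all 15 alternatives and that of Ppm1n under 14. The alternatives cut again the contrast on which the members were selected, so this supports nothing further. Some of the ratios were bounds from the floor, and some intervals included 1, such as 0.547 to 22.1 for Pde4c without cluster 5. In Y-positive cells Ppm1n turned to 0.476, on 7 UMIs in all, Gsto2 was at 3.57 and Pde4c at 2.38, and in Xist-positive cells Ppm1n was at 63.0. The alternatives on cluster 5 and on shared barcodes were chosen after the data were seen. Without cluster 5 the ratios were 6.64 for Gsto2, 3.74 for Pde4c and 4.98 for Lsmem1, and cluster 5 alone gave 1.92 for Ppm1n, at least 2.41 for Gsto2, at least 1.84 for Pde4c, 1.22 for Lsmem1 and 3.78 for BC051537. Thinning to 2000 UMIs left Pde4c and BC051537 at 0 control UMIs, with bounds of at least 4.94 and 4.39, and counting each cell equally gave 6.24 for Lsmem1. The share of mesenchymal cells with any member was 13.0% in knockout and 1.10% in control cells after thinning, 64.4% and 24.2% in cluster 5, and 16.9% in knockout cells without it. Joint detections over expected were 1.86 with at least 1000 genes and at most 5% mitochondrial UMIs, 2.79 after thinning and 1.09 in cluster 5. The count of genes at least 1.5-fold higher was 3505 with at least 1 UMI, and that of genes at least 4-fold higher was 777 with at least 1 UMI, 51 with at least 50 UMIs, 38 after thinning and 52 without cluster 5. The cause was not tested, but the limits on UMIs change which genes are counted. Depth limits every ratio with a control count below 5.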
